A study of Mus musculus with 6 samples.

Results

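Adherens junctions join neighbouring endothelial cells of the blood vessel wall. Their expression was described here for 10 genes: the cadherins *Cdh5*, *Cdh2* and *Cdh13*, the catenins *Ctnnb1*, *Jup*, *Ctnna1* and *Ctnnd1*, the phosphatase gene *Ptprb*, and the nectin and afadin genes *Nectin2* and *Afdn*. *Cdh5* was chosen by its lower FPKM in the KO libraries, so its values are a description with no test. The other 9 genes were chosen as its junction partners. All 10 were found among the 23183 gene symbols of every library, 2 of them under older symbols (*Afdn* as *Mllt4* and *Nectin2* as *Pvrl2*).

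RNA came from cerebral microvessels of C57BL/6 mice, with 3 WT and 3 TEKCRIF1 KO libraries. WT mice were TEK-cre, Crif1 +/+ and KO mice were TEK-cre, Crif1 flox/flox, so both groups carried the same Cre and differed in whether *Crif1* was floxed. Cre was driven by Tek, which is active in endothelial cells and in some blood cell precursors, and the age and sex of the sequenced mice are not given in the sources used here. A microvessel preparation also carries pericytes, smooth muscle cells, astrocyte endfeet and other brain cells, so fewer cells of a type and less RNA per cell cannot be told apart. Values are FPKM, in which the fragments of a gene are divided by its exon length and by the library's depth, which allows levels of different genes to be set side by side. The p-values measure the spread between 3 libraries per group.

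*Gadd45gip1*, the gene for Crif1, gave 18.8, 15.3 and 16.5 FPKM in WT and 10.8, 7.54 and 10.4 FPKM in KO, in accordance with the labels of all 6 libraries. The spacing of the smallest FPKM values put the depth at 7000000 to 12800000 fragments per library. At that depth the 10 genes rested on at least 338 fragments each in every library, a counting error of at most 5.44%. The KO libraries also differed from each other in composition. The Spearman correlation of their relative levels with transcript length was −0.29 in KO 1, 0.29 in KO 2 and −0.14 in KO 3, against 0.016 to 0.050 in WT. With transcript GC content the correlation was −0.14 for KO 1, −0.25 for KO 2 and −0.027 for KO 3 against 0.084 to 0.313 for WT, so that every KO library lay below every WT library. The transcripts of *Jup* (58.8% GC) and *Nectin2* (58.0% GC) had the highest GC content of the 10.

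In an adherens junction, classical cadherins span the membrane and bind cadherins of the neighbouring cell. Their cytoplasmic tail holds β-catenin or its close relative plakoglobin, which binds α-catenin and through it the actin cytoskeleton, while p120-catenin binds nearer to the membrane and keeps the cadherin from being internalized. Nectins, anchored to actin by afadin, form a parallel adhesion system at the same junctions. In brain endothelium VE-cadherin is the main cadherin of the junction and is required for vascular integrity, and VE-PTP, a receptor phosphatase, associates with it. β-catenin is also the transcriptional partner of TCF/LEF factors in Wnt signaling, a pathway needed to form and keep the blood-brain barrier.

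In the WT libraries *Ctnnb1* was the highest of the 10 genes, at 245 ± 19.0 FPKM (SD, n = 3). *Cdh5* followed at 90.1 ± 3.02 FPKM, *Ctnna1* at 79.8 ± 1.04 FPKM and *Ctnnd1* at 60.1 ± 8.50 FPKM. These 4 genes were each separated from the next, in that their ranges over the 3 libraries did not overlap. Below them came *Ptprb* (37.5 ± 8.29 FPKM), *Cdh2* (32.5 ± 7.34 FPKM), *Jup* (31.6 ± 3.05 FPKM), *Nectin2* (25.6 ± 2.81 FPKM), *Afdn* (22.4 ± 2.71 FPKM) and *Cdh13* (21.0 ± 8.87 FPKM). Among these lower 6 only *Jup* and *Nectin2* were separated as neighbours, and the ranges of the other 4 neighbouring pairs overlapped. In the KO libraries *Ctnnb1* stayed first at 247 ± 25.3 FPKM, and *Cdh5* stood at position 4 in place of position 2, at 43.8 ± 6.42 FPKM. There its range overlapped that of *Ctnnd1* above it and that of *Cdh2* below it.

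*Cdh5* encodes VE-cadherin (chr8:104101625-104144511, plus strand; all positions are GENCODE M21 genes on GRCm38). Its level was 86.7 FPKM in WT 1, 92.4 in WT 2 and 91.3 in WT 3, against 50.8 FPKM in KO 1, 42.5 in KO 2 and 38.1 in KO 3. All 3 KO libraries lay below all 3 WT libraries, with a gap of 35.9 FPKM between the nearest libraries of the groups, while the range within a group was 5.67 FPKM in WT and 12.6 FPKM in KO. The KO mean was 48.6% of the WT mean, a difference of −1.03 ± 0.19 (SE) in mean log2(FPKM + 1), the scale of every log2 fold change given here. Among the 14247 genes tested, those whose mean over the 6 libraries reached 1 FPKM, 1.57% had a log2 fold change at least as large in size as that of *Cdh5*. Because *Cdh5* was chosen by this difference, the share is a description and no test of it.

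For *Cdh2* and *Cdh13*, the other cadherins among the 10 genes, the groups overlapped. *Cdh2* (chr18:16588877-16809246, minus strand) encodes N-cadherin, which brain endothelial cells use in contacts with pericytes and which neurons and glia also express. It gave 24.7, 33.6 and 39.3 FPKM in WT and 34.4, 39.2 and 36.5 FPKM in KO. The log2 fold change was 0.19 ± 0.22 (adjusted p = 0.929 by limma, exact permutation p = 0.5). Without WT 1, its lowest library, the log2 fold change was 0.013, and without WT 3, its highest, it was 0.34. The *Cdh2* to *Cdh5* ratio was 0.285, 0.364 and 0.430 in WT and 0.679, 0.924 and 0.956 in KO. This ratio contains the gene chosen for its difference and was not tested.

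*Cdh13* (chr8:118283733-119324921, plus strand) encodes T-cadherin, which is tethered to the membrane by a lipid anchor and has no cytoplasmic tail for catenins. Its values were 11.3, 28.7 and 23.0 FPKM in WT and 12.4, 20.1 and 16.8 FPKM in KO, and WT 1 and KO 1 were the low libraries of their groups. The log2 fold change was −0.27 ± 0.33 (adjusted p = 0.934 by limma, exact permutation p = 0.5). It depended on single libraries, being −0.64 without WT 1, with an unadjusted p of 0.0432 by limma, and −0.0040 without WT 2.

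**Figure D1:**
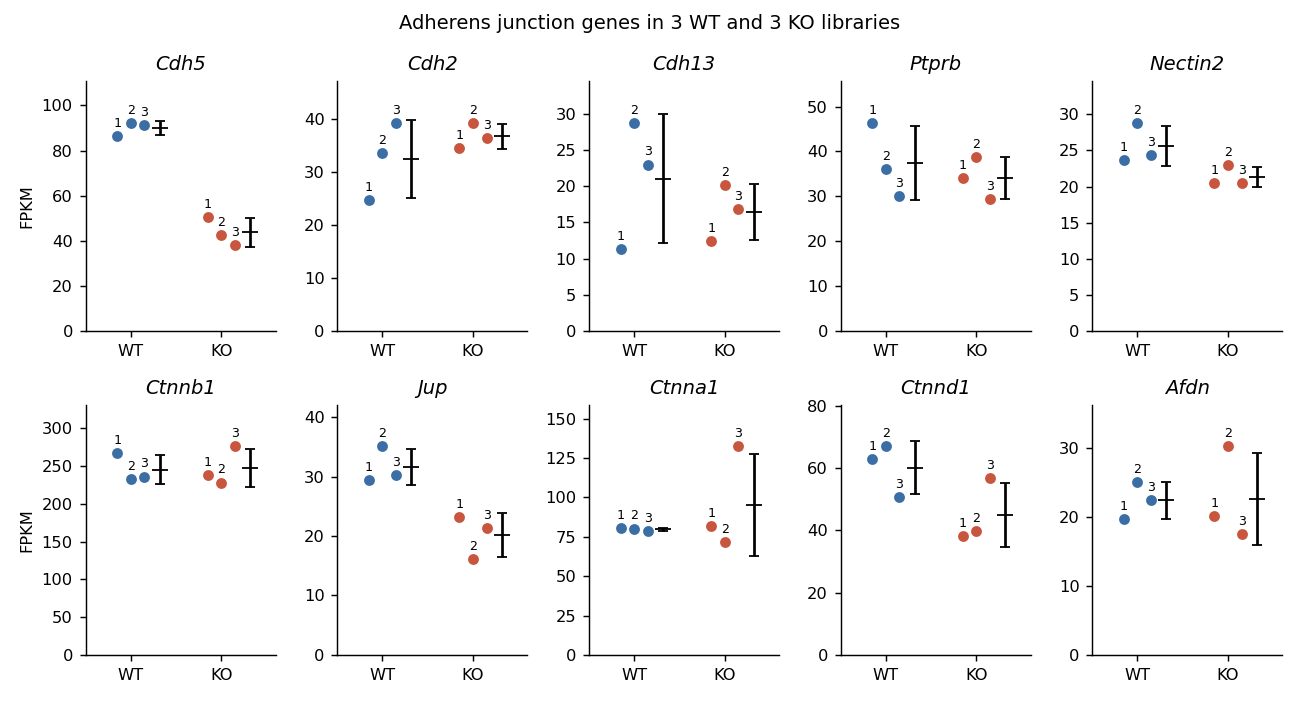
FPKM (vertical axes, each from 0) of the 10 adherens junction genes in WT (blue) and KO (red) libraries; numbers mark the replicates, and the horizontal mark and bar give the mean ± SD of 3 libraries. For *Cdh5*, *Jup* and *Nectin2* every KO point lies below every WT point, and for the other 7 genes the groups overlap.

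*Ctnnb1* (chr9:120929216-120960507, plus strand) gave 267, 233 and 236 FPKM in WT and 237, 228 and 276 FPKM in KO. The groups overlapped, with KO 2 below and KO 3 above the WT range, and the log2 fold change was 0.0085 ± 0.21 (adjusted p = 0.997 by limma, exact permutation p = 0.8). *Jup* (chr11:100368958-100397763, minus strand), the gene for plakoglobin, which takes the place of β-catenin in part of the cadherin complexes and also belongs to desmosomes, gave 29.4, 35.1 and 30.3 FPKM in WT and 23.2, 16.1 and 21.3 FPKM in KO.

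All 3 KO libraries were below all 3 WT libraries for *Jup*. Its log2 fold change was −0.63 ± 0.21, with an unadjusted p of 0.0123 and an adjusted p of 0.841 by limma, and the exact permutation test gave its smallest possible p of 0.1. *Jup* was the only one of the 9 partners with an unadjusted p under 0.05. None of the 9 passed after Benjamini-Hochberg adjustment over all genes (adjusted p from 0.841 to 0.997). Over all genes tested, 443 (3.11%) were lower in KO and 395 (2.77%) higher at an unadjusted p under 0.05, 838 in total, and 0 (0%) passed after adjustment by limma. *Jup* had an unadjusted p of 0.0552 without WT 2, and 0.0450 once each library was corrected for both transcript length and GC content, which brought the log2 fold change to −0.45.

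The *Jup* to *Ctnnb1* ratio compares the catenins that occupy the same stretch of the cadherin tail. It was 0.110, 0.151 and 0.128 in WT and 0.0976, 0.0704 and 0.0774 in KO, so that every KO library was below every WT library. The means were 0.130 ± 0.0204 and 0.0818 ± 0.0141, a log2 difference of −0.67 (exact two-sided permutation p = 0.1, the smallest that 3 against 3 libraries allow). Once each library was corrected for transcript length and GC content, the log2 difference was −0.48 (exact permutation p = 0.1).

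*Ctnna1* (chr18:35118859-35254779, plus strand), the gene for αE-catenin, which links β-catenin to actin, was the most even gene in WT, at 80.6, 80.2 and 78.6 FPKM. In KO it was 81.9, 71.7 and 132 FPKM, so that KO 2 lay below the WT range, KO 1 just above it and KO 3 far above it. The log2 fold change was 0.20 ± 0.25 (adjusted p = 0.933 by limma, exact permutation p = 0.7), and it turned to −0.058 without KO 3.

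*Ctnnd1* (chr2:84600071-84650765, minus strand) encodes p120-catenin. It gave 62.8, 66.9 and 50.6 FPKM in WT and 38.3, 39.6 and 56.6 FPKM in KO. The values of KO 1 and KO 2 were below all WT libraries, and KO 3 lay inside the WT range. The log2 fold change was −0.43 ± 0.22 (adjusted p = 0.841 by limma, exact permutation p = 0.2). Without KO 3 it was −0.60, with an unadjusted p of 0.0215 by limma.

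*Ptprb* (chr10:116275523-116389535, plus strand) encodes VE-PTP, which dephosphorylates VE-cadherin complexes and the Tie2 receptor. It gave 46.4, 36.0 and 30.0 FPKM in WT and 34.1, 38.7 and 29.5 FPKM in KO, with overlapping groups and a log2 fold change of −0.12 ± 0.22 (adjusted p = 0.960 by limma, exact permutation p = 0.6). Its sign depended on 1 library, being 0.043 without WT 1. *Ptprb* is itself largely restricted to endothelium, and its ratio to *Cdh5* was 0.535, 0.390 and 0.329 in WT and 0.672, 0.911 and 0.774 in KO, given with no test.

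*Nectin2* (chr7:19716644-19750483, minus strand), an adhesion receptor of the nectin system, gave 23.6, 28.8 and 24.4 FPKM in WT and 20.5, 23.0 and 20.5 FPKM in KO. Every KO library was below every WT library, but the distance between WT 1 and KO 2 was smaller than the spread within either group. The log2 fold change was −0.25 ± 0.19 (adjusted p = 0.877 by limma, exact permutation p = 0.1), and it was −0.097 once each library was corrected for GC content. *Afdn* (chr17:13760539-13906150, plus strand), which encodes the actin-binding scaffold of the nectins, gave 19.6, 25.0 and 22.5 FPKM in WT and 20.1, 30.2 and 17.5 FPKM in KO. Library KO 2 was the highest and KO 3 the lowest of all 6 libraries for *Afdn*, and its log2 fold change of −0.016 ± 0.24 (adjusted p = 0.994 by limma, exact permutation p = 0.9) took the opposite sign under quantile normalization (0.028).

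Over the 9 partners, 6 log2 fold changes were below 0, with a median of −0.12 against −0.01 over all genes tested. With *Cdh5*, which was chosen for its lower values, the median was −0.18. For 3 genes (*Cdh5*, *Jup* and *Nectin2*) every KO library lay below every WT library, for 0 every KO library lay above, and for 7 the groups overlapped. Over all genes tested, every KO library lay below every WT library for 5.7% and above for 5.37%. The count of 3 includes *Cdh5*, which was chosen by this difference.

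The sequences around the transcription start are shown for *Jup* and *Nectin2*, the partners whose groups did not overlap. They cover 250 bases before and 50 after the start in RefSeq (GRCm38.p6), on the coding strand from 5′ to 3′, at chr11:100397741-100398040 (minus strand) for *Jup* and chr7:19749524-19749823 (minus strand) for *Nectin2*. Capitals mark matches to 3 motifs searched on both strands: AGGAAG and CGGAAG, which contain the GGAA core read by ETS factors such as the endothelial factor ERG, and CTTTGA, read by TCF/LEF factors. The motifs were chosen after the sequences were seen.
Jup: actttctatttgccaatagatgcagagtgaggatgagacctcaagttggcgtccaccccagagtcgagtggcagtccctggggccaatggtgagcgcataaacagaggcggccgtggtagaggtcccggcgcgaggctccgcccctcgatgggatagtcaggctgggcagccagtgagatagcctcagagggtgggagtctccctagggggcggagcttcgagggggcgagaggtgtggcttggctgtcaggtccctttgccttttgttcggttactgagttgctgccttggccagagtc
Nectin2: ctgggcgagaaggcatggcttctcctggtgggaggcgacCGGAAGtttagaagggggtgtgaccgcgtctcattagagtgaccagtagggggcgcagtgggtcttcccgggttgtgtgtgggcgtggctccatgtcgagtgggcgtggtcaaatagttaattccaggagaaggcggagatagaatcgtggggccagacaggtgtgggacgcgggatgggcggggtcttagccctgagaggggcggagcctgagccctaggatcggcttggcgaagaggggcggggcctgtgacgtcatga
The *Nectin2* sequence held 1 CGGAAG and neither of the other motifs, and the *Jup* sequence held none of the 3. Among 32851 RefSeq promoters of the same length, 35.4% held AGGAAG, 16.9% held CGGAAG and 16.0% held CTTTGA. GC content was 60.7% for *Jup* and 62.7% for *Nectin2*, against a median of 52.7% over all promoters. RefSeq promoters were matched for 5 of the 10 genes. A match is a run of letters in this window and was not tested as a binding site.

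*Cdh5* was next set beside other endothelial genes, since its level in a microvessel preparation also follows the endothelial share of the RNA. All 16 endothelial markers listed (among them *Pecam1*, *Cldn5*, *Kdr*, *Tek*, *Erg* and *Slc2a1*) were expressed in every library. Their summed level ranged from 1376 to 1918 FPKM in WT and from 1318 to 1730 FPKM in KO. The mean of their log2(FPKM + 1) was 6.11 ± 0.200 in WT and 6.03 ± 0.161 in KO, a difference of −0.08 (exact two-sided permutation p = 0.5). None of the 16 had an unadjusted p under 0.05 by limma, 10 were lower and 6 higher, and their median log2 fold change was −0.11. For 0 of the 16 markers was every KO library below every WT library, and for 1, *Emcn*, every KO library was above. Over all genes tested these shares were 5.7% and 5.37%, and 5.88% had an unadjusted p under 0.05 by limma. *Pecam1*, the junctional adhesion molecule CD31, gave 90.9, 69.6 and 55.8 FPKM in WT and 81.8, 58.8 and 88.9 FPKM in KO.

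The *Cdh5* to *Pecam1* ratio was 0.954, 1.33 and 1.64 in WT and 0.620, 0.722 and 0.429 in KO. Relative to the mean of the 16 markers, *Cdh5* was at 0.20, 0.35 and 0.64 log2 units in WT and at −0.43, −0.40 and −0.83 in KO, a difference of −0.95 that is given with no test. The same difference was −0.55 for *Jup* and −0.34 for *Ctnnd1*, and for both every KO library lay below every WT library (exact permutation p = 0.1). On this scale every KO library lay below every WT library for 3.15% of all genes tested and above for 6.42%. Without KO 1 the difference for *Ctnnd1* was −0.20. Once length and GC content were corrected, the difference was −0.38 for *Jup* and −0.37 for *Ctnnd1*. Only 1 partner, in place of these 2, then had groups that did not overlap on this scale. For the other 7 partners the groups overlapped on this scale, with differences between −0.18 for *Cdh13* and 0.29 for *Ctnna1* (exact permutation p from 0.3 to 0.9).

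**Figure D2:**
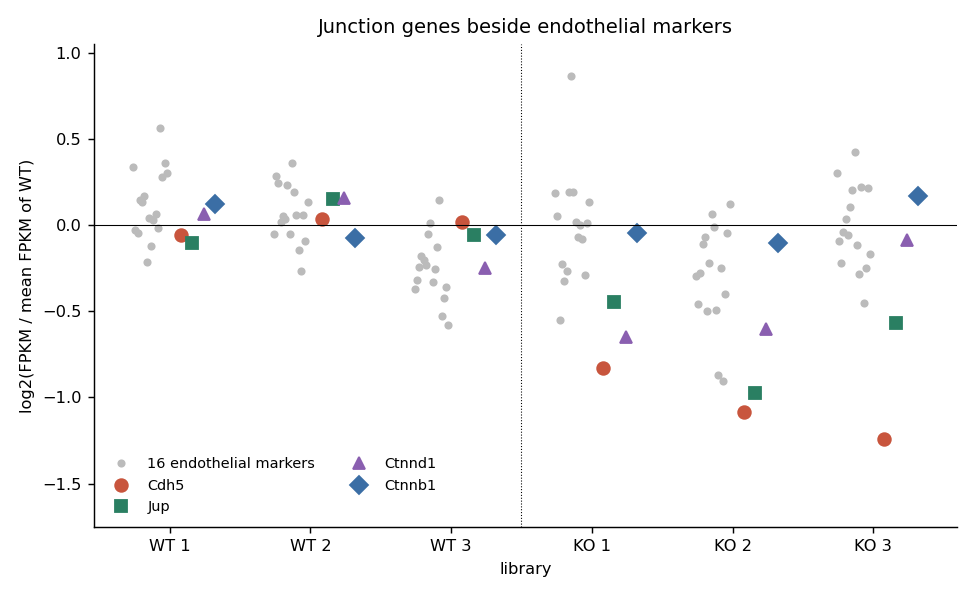
Level of *Cdh5*, *Jup*, *Ctnnd1* and *Ctnnb1* (coloured symbols) and of 16 endothelial markers (grey points, 1 per gene) in each library, as log2 of FPKM over the mean FPKM of WT. *Cdh5* lies below all 16 markers in each of KO 1, KO 2 and KO 3, and *Ctnnb1* stays near 0 in all 6 libraries.

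Around these 10 genes, 73 other adherens junction genes were listed, and 68 of them reached a mean of 1 FPKM. Of the 68, 44 were lower and 24 higher in KO, with a median log2 fold change of −0.07. At an unadjusted p under 0.05 by limma, 2 were lower (*Cdh1* and *Nectin1*) and 2 higher (*Ctnnal1* and *Rap1a*), and 0 passed after adjustment (adjusted p = 0.841 for each of the 4). The 4 called genes were 5.88% of the 68, and 5.88% of all genes tested were called at the same threshold. Every KO library was below every WT library for 7 of the 68 and above for 2, where the shares over all genes tested were 5.7% and 5.37%. These counts depended on single libraries, with 4 genes called over all 6 libraries, 2 without WT 2 or without KO 1, 9 without KO 3 and 12 without KO 2. The share of all genes called moved with them, from 5.88% to 3.16% without WT 2, 3.58% without KO 1, 6.97% without KO 3 and 13.1% without KO 2.

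*Cdh1* encodes E-cadherin, the cadherin of epithelia. It gave 39.2, 45.0 and 32.1 FPKM in WT and 15.9, 23.6 and 31.5 FPKM in KO (log2 fold change −0.73 ± 0.26), and KO 3 lay just below the lowest WT library. *Nectin1*, listed as *Pvrl1*, gave 14.8, 23.7 and 22.9 FPKM in WT and 12.2, 12.7 and 9.49 FPKM in KO, all below WT (log2 fold change −0.77 ± 0.24). *Ctnnal1*, the gene for an α-catenin-like protein, gave 12.2, 9.11 and 12.2 FPKM in WT and 21.4, 16.1 and 25.2 FPKM in KO, all above WT (log2 fold change 0.84 ± 0.23). *Rap1a*, a small GTPase that strengthens endothelial junctions, gave 23.0, 25.2 and 24.8 FPKM in WT and 37.4, 35.0 and 29.2 FPKM in KO, also all above (log2 fold change 0.45 ± 0.19).

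By role, 9 of 12 other classical cadherins tested, 4 of 6 other catenins and p120 relatives, 3 of 3 other nectins and 11 of 13 phosphatases and kinases that act at the junction were lower in KO, where 50.8% of all genes tested were. In the last of these groups *Csk*, which restrains Src family kinases, was the gene whose KO libraries (31.7, 25.8 and 25.6 FPKM) all lay below WT (34.6, 35.0 and 31.8 FPKM), with an adjusted p of 0.849 by limma. Over all genes tested, every KO library lay below every WT library for 5.7%. Among the other classical cadherins this held for *Cdh1* and for *Cdh22* (4.06, 4.39 and 5.48 FPKM in WT, 3.68, 3.67 and 2.39 FPKM in KO). The actin-linking and scaffold proteins were divided, with 7 of 15 lower and 8 higher and a median log2 fold change of 0.00. *Plekha7*, which ties p120-catenin to microtubules, was the member of that group with every KO library (3.71, 6.44 and 6.01 FPKM) below every WT library (8.09, 7.90 and 7.45 FPKM; adjusted p = 0.841). Of the 10 Rap1 and CCM regulators, 6 were lower, among them *Heg1*, a receptor of the CCM complex, whose 14.4, 22.1 and 24.2 FPKM in KO lay below 28.4, 27.6 and 24.8 FPKM in WT (adjusted p = 0.841). The 3 cadherin-cleaving proteases held no gene with an unadjusted p under 0.05. *Adam10*, which sheds the ectodomain of VE-cadherin, was at 34.7, 29.7 and 32.9 FPKM in WT and at 33.0, 36.7 and 28.8 FPKM in KO, a difference of 0.014 ± 0.19 on the log2 scale (adjusted p = 0.994).

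**Figure D3:**
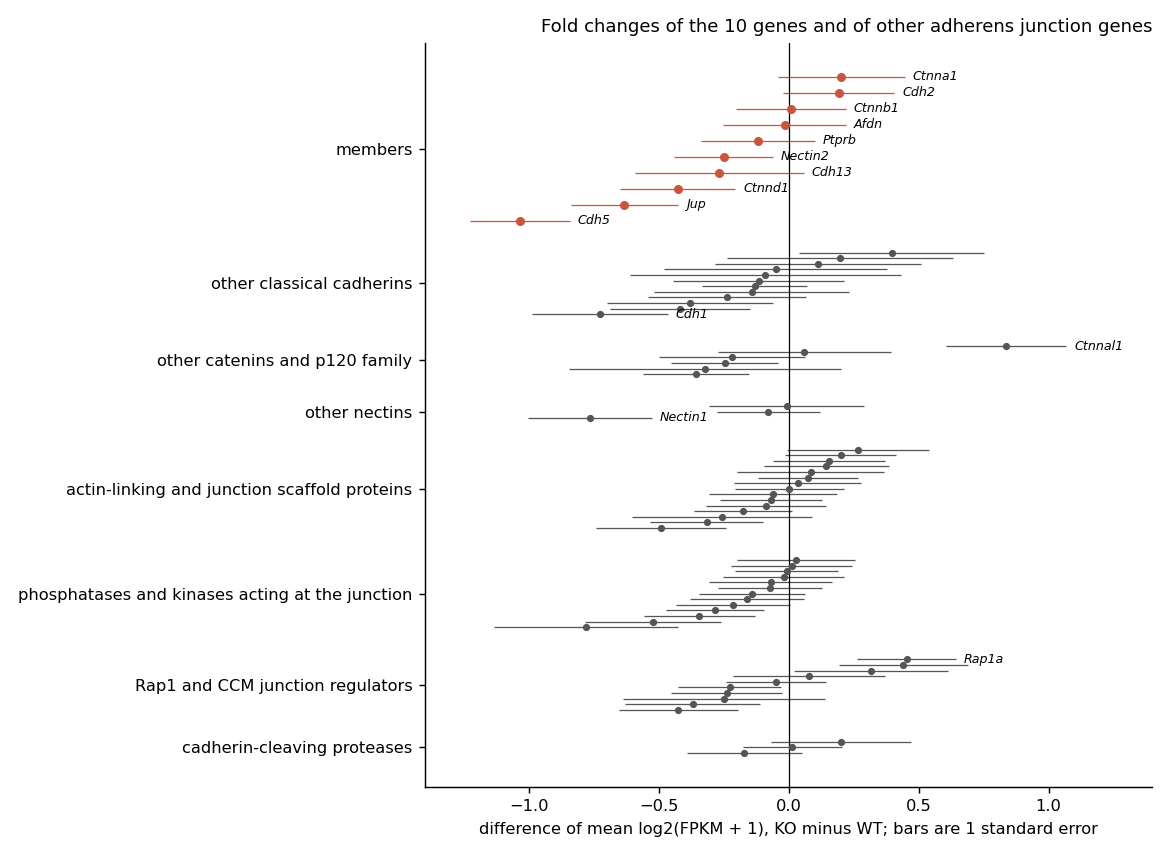
Difference of mean log2(FPKM + 1), KO minus WT (horizontal axis), of the 10 genes (red) and of 62 of the other adherens junction genes tested (grey), sorted within 7 groups; bars are 1 standard error. *Cdh5*, shown as a description, has the lowest value in the plot, and the named grey genes are the 4 with an unadjusted p under 0.05.

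Markers of other cells moved with some of these genes. The 5 choroid plexus markers, *Ttr*, *Kl*, *Folr1*, *Aqp1* and *Otx2*, summed to 2865 to 3341 FPKM in WT, against 8867 FPKM in KO 1, 2967 in KO 2 and 10602 in KO 3. All 5 were higher on average in KO, 2 of them with an unadjusted p under 0.05 by limma (*Kl* and *Otx2*). Of all genes tested, 2.77% were higher at that threshold. None of the 5 was at 0 in any library, and KO 2 was near the WT libraries. *Ctnna1* was highest in KO 3, at 132 FPKM, but at 81.9 FPKM in KO 1 it was near its WT values. *Cdh3*, the gene for P-cadherin, was at 13.9, 5.26 and 14.8 FPKM in KO against 5.72, 9.17 and 8.40 FPKM in WT.

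*Cdh13* was lowest in WT 1 and KO 1, and the 8 neuronal markers summed to 214, 343 and 440 FPKM in WT and to 196, 372 and 145 FPKM in KO. WT 1 and KO 1 were thus also low in neuronal markers, although KO 3 was lower than both. *Cdh2* was lowest in WT 1 as well. The 5 fibroblast markers were all lower in KO, 1 of them, *Col1a1*, with an unadjusted p under 0.05, and their sum was 1205 to 1809 FPKM in WT and 800 to 1105 FPKM in KO, the groups not overlapping. The 8 astrocyte markers were also all lower, 2 of them (*Gfap* and *Gja1*) with an unadjusted p under 0.05, with sums of 618 to 739 FPKM in WT and 474 to 526 FPKM in KO. Of all genes tested, 50.8% were lower in KO, and 3.11% were lower with an unadjusted p under 0.05 by limma. For *Jup*, *Nectin2*, *Nectin1* and *Cdh1* every KO library was also below every WT library. These genes were highest in WT 2, whereas the fibroblast and astrocyte sums were highest in WT 1. The part of these cells in the values of the junction genes was not tested.

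Of the other lists, with an unadjusted p under 0.05, 2 of 8 neuronal markers, 2 of 10 pericyte markers, 3 of 7 oligodendrocyte markers, 1 of 7 microglia or macrophage markers and 1 of 4 erythroid markers were lower in KO, where 3.11% of all genes tested were. None of the 7 arterial smooth muscle markers reached this threshold. The erythroid gene called was *Hbb-bs*, at 0, 126 and 10.6 FPKM in WT and at 0 in every KO library. It was thus at 0 in WT 1 as well, and it passed the filter only through WT 2 and WT 3. *Hba-a1* was at 1359 to 2215 FPKM in WT and at 1081 to 2202 FPKM in KO. No marker in any list passed after adjustment by limma. Every KO library lay below every WT library for 4 of 10 pericyte, 2 of 7 oligodendrocyte and 1 of 7 microglia or macrophage markers. This held for 0 of the neuronal, erythroid and arterial smooth muscle markers, and for 5.7% of all genes tested.

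**Figure D4:**
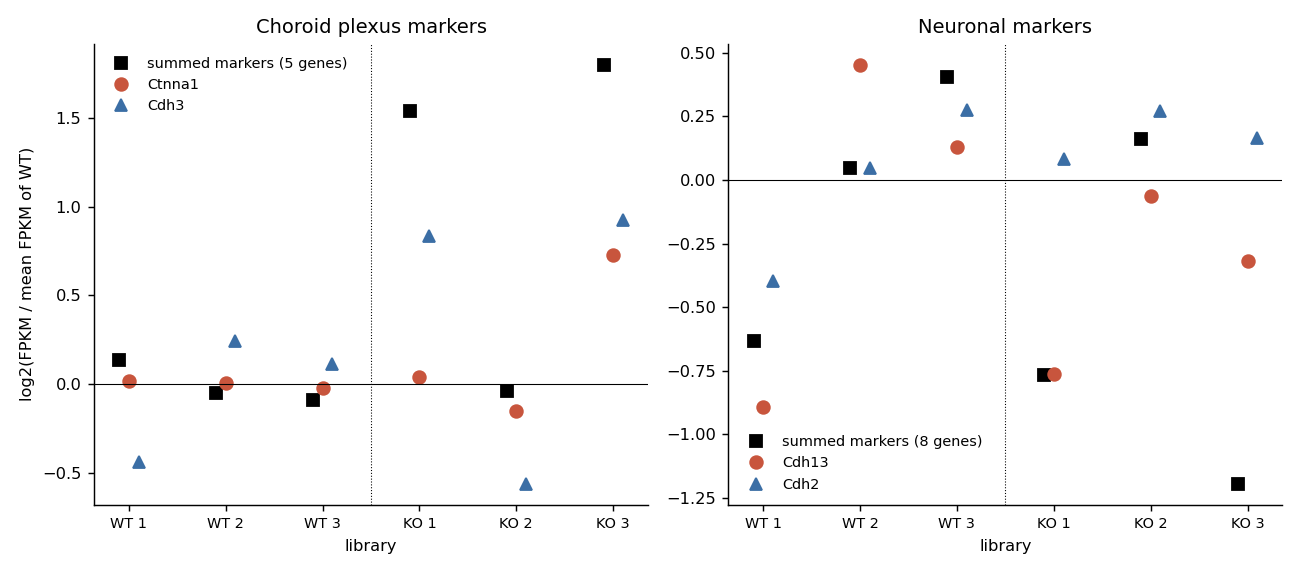
Left, summed FPKM of 5 choroid plexus markers (black squares) beside *Ctnna1* and *Cdh3*; right, summed FPKM of 8 neuronal markers beside *Cdh13* and *Cdh2*, each as log2 over the mean of WT, by library. KO 1 and KO 3 stand above the other 4 libraries in choroid plexus markers, and *Cdh13* is lowest in WT 1 and KO 1.

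The pattern of *Cdh5* over the 6 libraries was compared with that of the other genes among the 6920 whose mean reached 10 FPKM. Pearson's r of log2(FPKM + 1) was used, as a description over libraries that share the WT to KO difference. The 5 most alike were *Nnat* (r = 0.989), *Ncoa5* (0.969), *Zc3h18* (0.965), *Fam20c* (0.965) and *Rtn2* (0.964). *Nnat*, the imprinted neuronatin gene, gave 1789, 1968 and 1840 FPKM in WT and 1322, 1075 and 947 FPKM in KO, with the libraries in the same order as for *Cdh5*. Among the partners *Jup* was most alike (r = 0.899, position 57 of these other genes), followed by *Nectin2* (r = 0.769, position 316). *Ctnnb1* (r = −0.19), *Cdh2* (r = −0.42) and *Ctnna1* (r = −0.48) had values below 0.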

How the data were processed

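RNA of cerebral microvessels was sequenced by the authors as paired ends on a HiSeq X10 from NEBNext Ultra II Directional libraries. The authors trimmed the reads with FASTX_Trimmer and BBMap, mapped them with TopHat (mm10, per the submitters' processing notes) and deposited FPKM values, 1 per gene symbol and library. Read counts were not used here, and no scaling between libraries is stated. The authors' own comparison used DESeq2 on the same groups.

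Libraries were grouped by the genotype in the labels. KO was compared with WT on log2(FPKM + 1) with limma 3.58.1 (R 4.3.3, trended variance, no added scaling) for the 14247 genes whose mean over the libraries reached 1 FPKM, with Benjamini-Hochberg adjustment over these genes, and with exact two-sided permutation tests for the FPKM of each partner, for ratios and for values relative to the endothelial markers. The members and gene lists were chosen with earlier results of these data known. All 10 members were named, and of the wider junction list those with an unadjusted p under 0.05 and examples of each group whose libraries did not overlap. *Cdh3* and *Adam10* were named after their values were seen. 1 group of the wider list is not reported here, and the counts over the whole list include it. Older symbols were resolved with RefSeq synonyms, and positions, length and GC content came from GENCODE M21 (GRCm38). Depth was estimated from the spacing of low FPKM values in 1738 genes with a single transcript, assuming fragments of 200 bases, and 3 fragments on 1 kb then equal 0.234 to 0.429 FPKM, which covers counting error only. Alternatives changed the filter, the pseudocount, the scaling, the variance prior, a correction for length and GC content (loess, span 0.3), a replicate block and the libraries included. The replicate numbers were taken from the titles. The file headers carry other numbers (4, 6 and 8 for WT, 1, 2 and 6 for KO), by which WT 2 and KO 3 share a number, and the block does not pair these. The numbers of the titles did not pair the libraries (r of same-numbered deviations 0.037, 0.027 and 0.0016).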

Additional observations from a re-analysis of the deposited data

How the results depend on the processing

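The log2 fold changes of the 10 genes were computed under 19 alternatives, which gave 174 of 190 values with the reported direction and, for the 9 tested partners, no adjusted p under 0.05, and 16 with the opposite direction. The unadjusted p crossed 0.05 in 5 values: *Jup* lost it without WT 2 and with the block and both corrections, and *Ctnnd1* (without KO 3, and without KO 1 and KO 3) and *Cdh13* (without WT 1) gained it. The log2 fold change of *Cdh5* ranged from −1.14 without KO 1 to −0.94 without KO 3. *Jup* ranged from −0.93 to −0.45 and had an unadjusted p under 0.05 in 17 of the 19. Opposite directions came under quantile normalization for *Ctnnb1* (−0.093) and *Afdn* (0.028), and with transcript length corrected for *Afdn* (0.015). Leaving out 1 library in turn gave −0.073 to 0.071 for *Ctnnb1*, −0.058 to 0.38 for *Ctnna1*, −0.26 to 0.043 for *Ptprb* and −0.24 to 0.14 for *Afdn*. Without KO 1 and KO 3 (an alternative chosen after seeing the data, in which the lone KO library is assumed to vary like WT) the values were −1.07 for *Cdh5*, −0.93 for *Jup*, −0.10 for *Ctnnb1*, −0.15 for *Ctnna1*, 0.067 for *Ptprb*, 0.42 for *Afdn* and 0.031 for *Cdh13*. Relative to *Pecam1* alone in place of the endothelial markers, *Ctnnb1* was at −0.083 and *Afdn* at −0.11. Relative to the markers, leaving out 1 library in turn gave −0.22 to 0.11 for *Ptprb*, −0.24 to 0.27 for *Afdn* and −0.63 to 0.041 for *Cdh13*. The cause of these changes of direction was not tested. The number of partners whose groups did not overlap on that scale was 2, 1 with length and GC content corrected, and 2 to 4 with 1 library left out (4 without WT 3 or without KO 2). Of all genes tested, the groups did not overlap on that scale for 9.57%, for 8.58% with both corrected and for 14.1% to 26.3% with 1 library left out (26.3% without WT 3, 24.9% without KO 2).

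At an unadjusted p under 0.05, 838 genes were called, and this count ranged from 450 (without WT 2) to 1871 (without KO 2), with 510 without KO 1 and 1825 without KO 1 and KO 3. After adjustment it was 0, with 0 to 4 when 1 library was left out (1 without WT 3, 4 without KO 2, 4 without KO 3) and 7 without KO 1 and KO 3. The other junction genes called were 4, with 2 to 12 when 1 library was left out and 7 without KO 1 and KO 3. With the replicate block, 871 genes and 5 other junction genes were called, and the *Jup* to *Ctnnb1* ratio had an exact p of 0.25, the smallest that 3 pairs allow. With the block and both corrections *Jup* had an unadjusted p of 0.0670. With 3 libraries per group, the exact test could not reach 0.05.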
